A study of Arabidopsis thaliana with 12 samples.

Results

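The comparison of stearoyl-CoA (C18:0 CoA) with its vehicle rested on 6 of the 12 libraries of the series, chosen by their labelled treatment: 3 from seedlings given C18:0 CoA and 3 from control seedlings. All were wild-type Arabidopsis thaliana, kept for 14 days in half-strength liquid medium with sucrose. The treated group received C18:0 CoA for 90 min, at a final 0.1% with 0.01% Pluronic F68 as carrier. The control group received 0.01% Pluronic F68 alone, so every group was exposed to this non-ionic surfactant. Each library came from a pool of 80 whole seedlings. The labels name no Arabidopsis accession. The other 6 libraries came from seedlings given C18:1 CoA or C16:0 CoA at the same dose and for the same time. Poly(A) RNA was sequenced, and exon reads per gene are given below as CPM, read counts set to a common library size after TMM scaling.

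Stearoyl-CoA is a saturated long-chain fatty acid joined to coenzyme A. Plant cells make such thioesters with long-chain acyl-CoA synthetases, carry them on acyl-CoA-binding proteins and spend them on membrane and storage lipids, on wax and cutin, and on peroxisomal beta-oxidation. In Arabidopsis the acyl-CoA-binding proteins ACBP1 and ACBP2 also hold the group VII ethylene response factor RAP2.12 at the plasma membrane, from where it moves to the nucleus when oxygen falls and activates the core low-oxygen genes. In air, plant cysteine oxidases mark these factors for degradation through the N-degron pathway. The low-oxygen genes and the enzymes that make and use acyl-CoA are therefore the groups of most interest after C18:0 CoA.

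Both organs of a seedling were represented. The 26 photosynthesis genes, markers of the shoot, summed to between 16597 and 20271 CPM in the controls and between 15884 and 23373 CPM with C18:0 CoA. The 12 measured root and root hair genes summed to between 294 and 453 CPM in the controls and between 265 and 369.9 CPM with C18:0 CoA. In whole seedlings, fewer cells of a type and less RNA per cell cannot be told apart. Depth was uneven: the controls held 1303225 to 6126277 exon reads and the C18:0 CoA libraries 602649 to 4236345. A level of 3 reads equalled 0.476 CPM in the deepest of the 6 libraries and 5.26 CPM in C18:0 CoA replicate 2, the shallowest. This level covers counting error only. That replicate also stood apart by gene length: its shortest genes were higher against its longest genes by 0.39 (log2), while the other 5 libraries ranged from -0.46 to 0.08. No sequencing lane held libraries of both groups (controls were in lanes 1, 2 and 3, C18:0 CoA in lanes 4, 5 and 6). Only the C16:0 CoA libraries, in lanes 2, 3 and 4, link those lanes, and a fit with a term per lane leaves 1 residual degree of freedom. Lanes 5 and 6 held no other library, so in that fit the treated level rests on C18:0 CoA replicate 1 alone.

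Low-oxygen genes stood higher after 90 min of C18:0 CoA, with about a doubling of LBD41, HB1 and PDC1, but no gene passed the test across all genes. In a fit with a term per sequencing lane the treated level rests on C18:0 CoA replicate 1 alone. There the list's direction turned, to a median log2 fold change of -0.24. LBD41, PDC1 and HB1 were at -0.33, -0.18 and 0.26 in that fit. Of 17036 genes tested with edgeR's quasi-likelihood test, 0 (0.0%) had a Benjamini-Hochberg adjusted p below 0.05, and the smallest adjusted p was 1.0. DESeq2 and limma voom also gave 0. At an unadjusted p below 0.05, edgeR gave 321 genes, 209 higher with C18:0 CoA (1.23% of all tested) and 112 lower (0.657%). In 1002 genes (5.88%) all 3 C18:0 CoA libraries lay above all 3 controls, and in 1102 (6.47%) all 3 lay below. These counts are the background for every gene group described here.

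Among the 52 core low-oxygen genes, 50 were measured, and 45 of them (90%) had a positive log2 fold change, against 50.4% of all genes tested. Their median log2 fold change was 0.55, against 0.003 for all genes tested. With a term per lane 16 of the 50 were positive and 34 negative. There were 20 members at an unadjusted p below 0.05 with the higher level under C18:0 CoA (40%, background 1.23%) and 0 with the lower level. All 3 C18:0 CoA libraries lay above the controls for 20 members and below for 1, the ethylene receptor gene ETR2. The list's per-library score was the median of centred log2 CPM over its members. It was -0.43, -0.30 and -0.28 in control replicates 1 to 3 and -0.15, 0.09 and 0.45 in C18:0 CoA replicates 1 to 3. The groups did not overlap. Of the 25 lists, 2 had all treated scores above all controls, this one included, and 3 had them below.

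**Figure D1:**
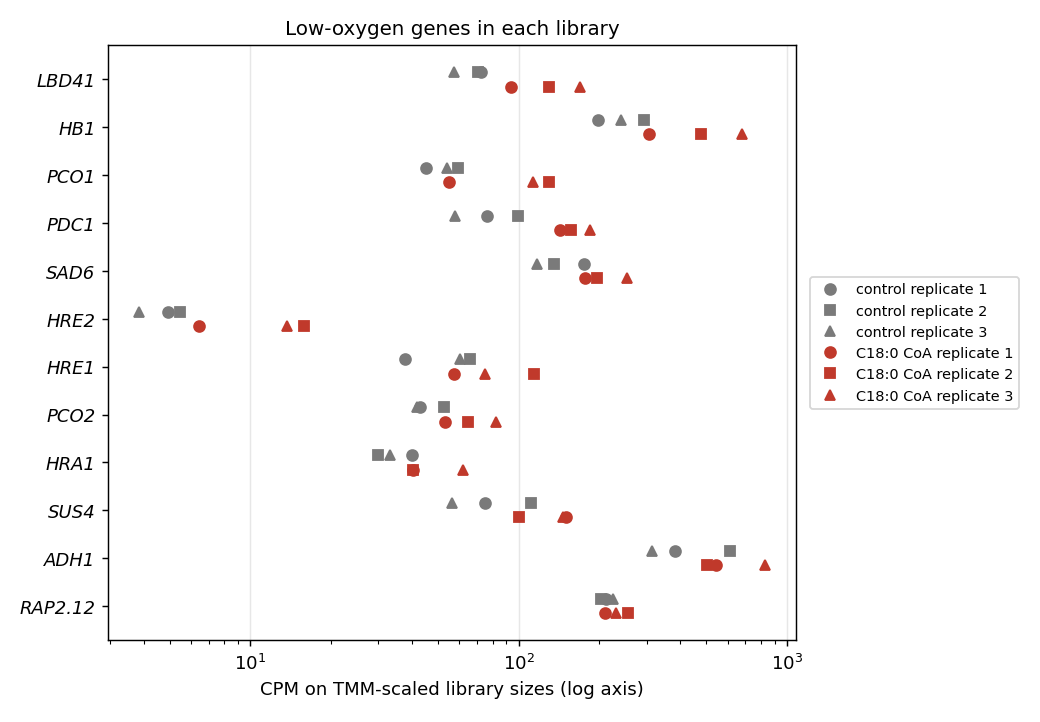
CPM (log axis) of 12 low-oxygen genes, ordered by unadjusted p, in each control (grey) and C18:0 CoA (red) library, with 1 marker shape per replicate number. LBD41, HB1, PDC1, SAD6, HRE2, PCO2 and HRA1 show no overlap between groups (HB1, SAD6 and PCO2 overlap once each library's trend with exon length is removed), while RAP2.12 lies between 203.0 and 256.0 CPM in every library.

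LBD41, a LOB-domain transcription factor of the low-oxygen response (chromosome 3, 536505 to 537998, TAIR10), was at 72.6, 70.6 and 57.2 CPM in the controls and at 93.3, 129.8 and 169.0 CPM with C18:0 CoA. Every treated library was higher than every control. The means were 66.8 ± 8.4 and 131.0 ± 38.0 CPM (SD, n = 3). The log2 fold change was 0.95 with a standard error of 0.26 (95% interval 0.4 to 1.5), and errors of other fold changes below are standard errors too. The unadjusted edgeR p was 0.00188.

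HB1, the stress-inducible phytoglobin that scavenges nitric oxide (chromosome 2, 6982531 to 6983631), was at 197.0, 294.0 and 240.2 CPM in the controls and at 306.0, 479.0 and 681.0 CPM with C18:0 CoA. Again the groups were separate, though C18:0 CoA replicate 1 lay close to the highest control. The log2 fold change was 1.00 ± 0.30, with an unadjusted edgeR p of 0.0035.

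PDC1, the pyruvate decarboxylase that starts ethanol fermentation (chromosome 4, 15952289 to 15954771), was at 76.0, 99.2 and 57.9 CPM in the controls and at 143.0, 156.0 and 185.0 CPM with C18:0 CoA. All treated libraries were clearly above the controls, and its log2 fold change was 1.04 ± 0.43 (unadjusted edgeR p 0.0261). ADH1, the alcohol dehydrogenase of the next step, did overlap: the controls were at 381.0, 610.5 and 315.0 CPM and the treated libraries at 542.0, 505.0 and 824.0 CPM, with a log2 fold change of 0.52 ± 0.40. SUS4, a sucrose synthase that feeds glycolysis, was at 75.0, 111.0 and 56.4 CPM against 149.8, 100 and 146.0 CPM and overlapped as well.

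The oxygen-sensing branch showed the same mixture. PCO1, a cysteine oxidase that is itself a low-oxygen gene, was at 45.0, 59.4 and 54.1 CPM in the controls and at 55.1, 129.8 and 113.0 CPM with C18:0 CoA. Replicate 1 stayed among the controls while the other two treated libraries were well above every control, and the log2 fold change was 0.86 ± 0.29 (unadjusted edgeR p 0.00754). PCO2 averaged 45.8 ± 6.03 CPM in the controls and 66.6 ± 14.5 CPM with C18:0 CoA without overlap. HRE2, a group VII factor that is induced in low oxygen, was at 4.92, 5.48 and 3.86 CPM in the controls and at 6.43, 15.8 and 13.7 CPM with C18:0 CoA, a log2 fold change of 1.15 ± 0.49. The constitutive factor RAP2.12 was at 213.0 ± 10.6 and 232.0 ± 23.2 CPM, with overlap and a log2 fold change of 0.12 (95% interval -0.25 to 0.49). HRA1, which restrains RAP2.12, was at 34.4 ± 5.16 and 47.7 ± 12.6 CPM. PRT6, the ubiquitin ligase of the N-degron pathway, was at 68, 69.2 and 57.9 CPM in the controls and lower, at 55.4, 36.8 and 47.2 CPM, with C18:0 CoA (log2 fold change -0.45 ± 0.21, or -0.14 with the length trend removed; its exons span 6252 bases). Over the 13 ERF-VII and N-degron genes the median log2 fold change was 0.10.

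SAD6, a stearoyl-ACP desaturase that belongs to the low-oxygen genes (chromosome 1, 16577610 to 16579722), was at 175.0, 135.0 and 117.0 CPM in the controls and at 176.0, 196.0 and 254.0 CPM with C18:0 CoA. The groups were separate by a narrow margin, since control replicate 1 and C18:0 CoA replicate 1 were almost equal. Its log2 fold change was 0.55 ± 0.23 (unadjusted edgeR p 0.0264). The calmodulin-like calcium sensor CML38, also a low-oxygen gene, was at 12.8, 15.4 and 17.0 CPM against 15.6, 29.8 and 51.7 CPM, and ACO1, an ethylene-forming oxidase, at 115.0, 113.0 and 135.0 CPM against 153.0, 170.1 and 209.0 CPM.

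The treated replicates were not alike in these genes. Of the 50 measured members, 35 had their lowest treated level in C18:0 CoA replicate 1, and 29 had their highest in replicate 3. Without replicate 3, 3 members instead of 20 stood at an unadjusted p below 0.05 on the higher side. Over all genes tested that share was 0.653% instead of 1.23%. Without replicate 2 there were 15 members (0.719% of all genes) and without replicate 1 there were 25 (2.27%). Leaving out control replicate 1, 2 or 3 gave 10, 15 or 14 members (0.928%, 0.953% or 0.905% of all genes). After the trend of each library with exon length was removed, 12 members stood at that p and 13 lay above all controls, against 0.957% and 5.07% of all genes, and the list's median was 0.47. The median exon length of the list was 1242 bases, below the 1591 of all genes tested.

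The promoters of 3 of these genes are given to show what the letters upstream of genes with parallel values look like: LBD41 had the smallest p of the list, PDC1 is its main fermentation gene and SAD6 links it to stearoyl metabolism. Each is the 250 bases before the RefSeq gene start (TAIR10.1), 5′ to 3′ on the gene's strand, at chr3:538127-538376 (minus strand), chr4:15954804-15955053 (minus strand) and chr1:16577271-16577520 (plus strand). Capitals mark AAACCA, the core letters of the anaerobic response element, searched on both strands.
LBD41: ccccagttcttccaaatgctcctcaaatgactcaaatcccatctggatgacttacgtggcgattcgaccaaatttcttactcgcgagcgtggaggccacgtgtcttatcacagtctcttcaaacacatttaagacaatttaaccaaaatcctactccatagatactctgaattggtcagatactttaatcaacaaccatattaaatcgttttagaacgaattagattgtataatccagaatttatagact
PDC1: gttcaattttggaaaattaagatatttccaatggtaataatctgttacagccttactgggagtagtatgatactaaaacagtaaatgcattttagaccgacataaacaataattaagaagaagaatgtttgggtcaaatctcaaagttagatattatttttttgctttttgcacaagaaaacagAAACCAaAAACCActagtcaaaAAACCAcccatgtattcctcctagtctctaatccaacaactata
SAD6: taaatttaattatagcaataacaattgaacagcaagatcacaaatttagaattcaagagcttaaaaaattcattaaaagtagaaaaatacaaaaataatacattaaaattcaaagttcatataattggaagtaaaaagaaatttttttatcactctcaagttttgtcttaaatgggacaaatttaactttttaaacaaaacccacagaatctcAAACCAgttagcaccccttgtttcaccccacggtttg
PDC1 held 3 matches close to the gene start, SAD6 held 1 and LBD41 held 0. The same windows of HB1 and HRE2, not printed, held 0 as well. In promoters of this length the letters occurred in 21 of the 50 low-oxygen genes measured (42.0%) and in 4678 of 17020 genes tested (27.5%), and a match in letters is not a binding site.

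Across the 25 gene groups examined, the low-oxygen list was the one farthest from 0. Its 2 nearest neighbours in the upward direction were touch and wall-remodelling genes, with a median log2 fold change of 0.28 over 7 genes, and glycolysis and fermentation genes, with 0.15 over 24. Both neighbours share members with the low-oxygen list: CML38 in the touch list, and PDC1, ADH1 and SUS4 among others in the glycolysis list. At the other end were the long-chain acyl-CoA synthetases at -0.19, the circadian clock genes at -0.16 and the ethylene genes at -0.12. The remaining lists had medians between -0.07 and 0.11. With the length trend removed, the clock list was at -0.04 and the ethylene list at -0.02, and the touch list ranged from 0.18 without C18:0 CoA replicate 3 to 0.43 without replicate 2.

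**Figure D2:**
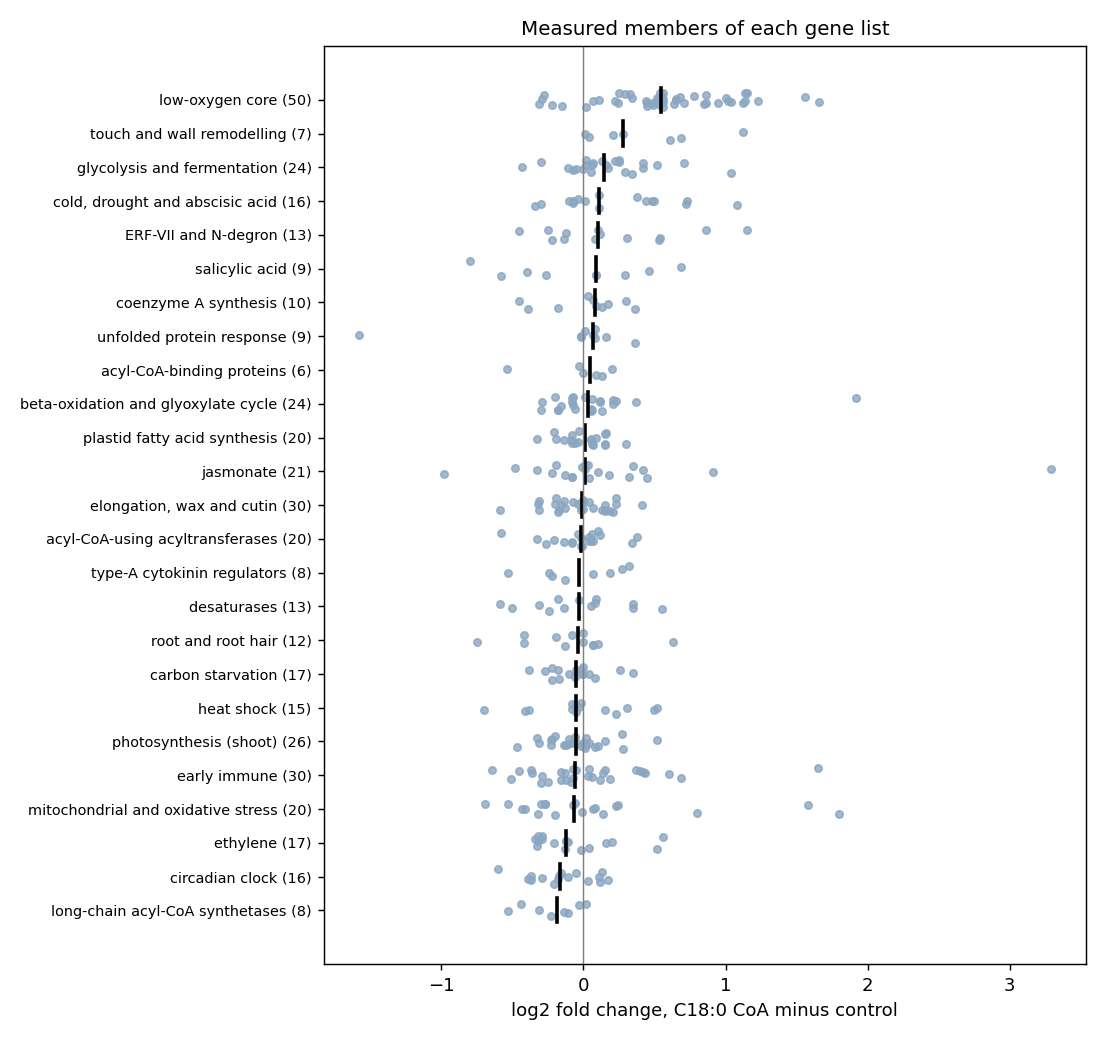
Each point is the log2 fold change (C18:0 CoA minus control) of 1 measured gene, the vertical bar is the list's median, and the number measured is in parentheses after the list's name. The low-oxygen list has a median of 0.55, and the other 24 lists have medians between -0.19 and 0.28.

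As a group, genes that carry acyl-CoA had fold changes close to 0. The synthetases that make acyl-CoA had the lowest median of the 25 lists, at -0.19. All 6 acyl-CoA-binding protein genes were measured, with a median log2 fold change of 0.04, and 0 of them stood apart between groups or reached an unadjusted p below 0.05. ACBP6, the small cytosolic member and the one with the most reads, was at 596.0, 549.8 and 752.0 CPM in the controls and at 648.0, 845.0 and 691.0 CPM with C18:0 CoA, with overlap. ACBP1 was at 17.9 ± 2.83 and 19.0 ± 7.88 CPM (log2 fold change -0.03, 95% interval -0.89 to 0.82). ACBP2 was at 18.1 ± 1.61 and 20.1 ± 2.38 CPM (0.13, 95% interval -0.64 to 0.90). These intervals reach from about a doubling to a similar loss, which limits what could be detected for both genes.

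Of the 9 long-chain acyl-CoA synthetases 8 were measured, and 7 had a negative log2 fold change. The list's per-library score was 0.24, 0.28 and 0.28 in the controls and -0.04, -0.32 and 0.15 with C18:0 CoA, without overlap. LACS7, a peroxisomal synthetase that activates fatty acids for beta-oxidation (chromosome 5, 9742576 to 9747005), was at 65.8, 64.9 and 71.8 CPM in the controls and at 50.5, 38.6 and 47.6 CPM with C18:0 CoA. The treated libraries were all lower, and the log2 fold change was -0.53 ± 0.24 (unadjusted edgeR p 0.0424). Its partner LACS6 overlapped, at 95, 116.0 and 85.0 CPM in the controls and 91.9, 70.1 and 108.0 CPM with C18:0 CoA. LACS4 also overlapped, at 292.0 ± 5.51 and 297.0 ± 30.8 CPM. The 8 genes have exons of 2304 to 2516 bases, and with the length trend removed their median log2 fold change was -0.08 instead of -0.19 and the value of LACS7 was -0.43. Without C18:0 CoA replicate 2 the median was -0.03.

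**Figure D3:**
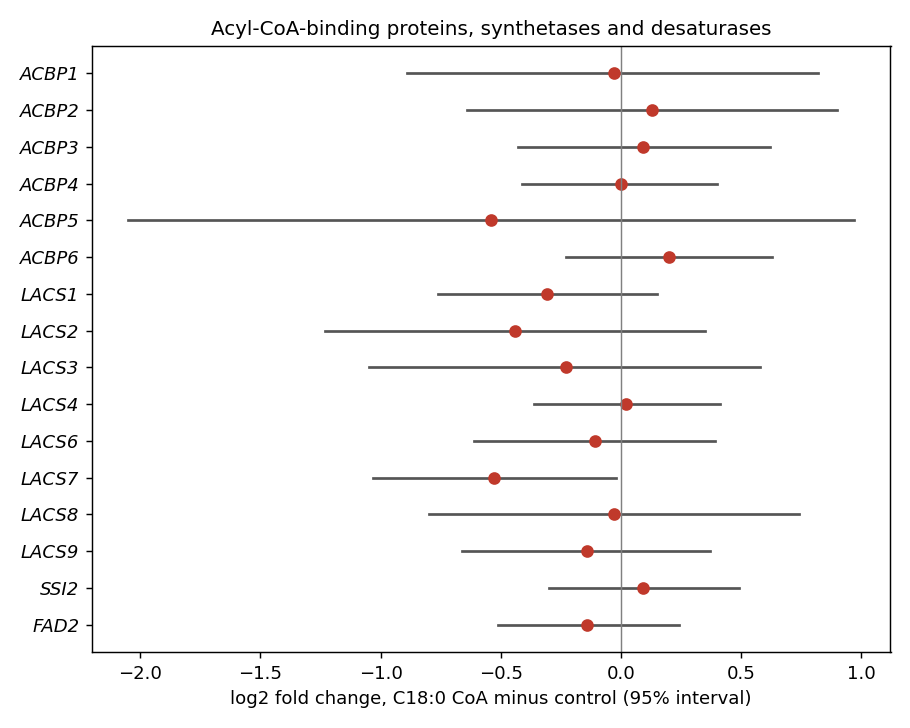
Log2 fold change with its 95% interval for the acyl-CoA-binding proteins, the measured long-chain acyl-CoA synthetases and the desaturases SSI2 and FAD2. The interval of LACS7 (-1.03 to -0.02) lies below 0, and those of the other 15 genes include 0.

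The main desaturases of stearoyl and oleoyl chains had similar means in both groups. SSI2, the main stearoyl-ACP desaturase of the plastid, was at 193.0 ± 14.4 CPM in the controls and 204.0 ± 39.5 CPM with C18:0 CoA. FAD2, the oleate desaturase of the endoplasmic reticulum, was at 497.0 ± 68.8 and 451.0 ± 26.7 CPM. ADS2, a desaturase that acts on acyl-CoA, was at 124.0 ± 14.8 and 158.0 ± 20.6 CPM, with each treated library above each control (log2 fold change 0.35 ± 0.20). AT3G02620, which RefSeq annotates as a stearoyl-ACP desaturase family protein, was at 10.9, 12.4 and 16.2 CPM against 10.8, 1.75 and 8.88 CPM.

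Synthesis and breakdown of fatty acids gave the same picture. The median log2 fold change was 0.01 over 20 plastid fatty acid synthesis genes and -0.01 over 30 elongation, wax and cutin genes. It was -0.01 over 20 lipid acyltransferases and 0.08 over 10 genes of coenzyme A synthesis. Over 24 genes of beta-oxidation and the glyoxylate cycle it was 0.03. ATS1, the plastid glycerol-3-phosphate acyltransferase, was lower in each treated library, at 36.8, 8.77 and 34.3 CPM against 50.7, 42.2 and 40.9 CPM. ICL, the isocitrate lyase of the glyoxylate cycle, was the exception among breakdown genes: it was at 2.38, 6.08 and 1.54 CPM in the controls and at 3.91, 8.77 and 27.9 CPM with C18:0 CoA, so that replicate 3 carried most of its log2 fold change of 1.92 ± 0.71.

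ICL is active when seed oil is mobilised, and a seed storage gene headed the list of genes with higher levels. CRA1, a cruciferin (chromosome 5, 17756264 to 17758288), was at 0.476, 0.203 and 0.772 CPM in the controls, which were 3, 1 and 1 reads, and at 1.15, 12.3 and 26.7 CPM with C18:0 CoA, which were 5, 7 and 66 reads. CRU3, another cruciferin named after the values of CRA1 were seen, was at 1, 6 and 6 reads in the controls and at 15, 6 and 55 reads with C18:0 CoA. Over 13 seed storage protein and oleosin genes, also chosen then, the controls held 35, 17 and 15 reads and the treated libraries 75, 19 and 148 reads. Their summed CPM, CRA1 included, was 5.6, 3.46 and 11.5 in the controls and 17.3, 32.6 and 59.6 with C18:0 CoA. Every treated library was higher than every control, but CRA1 had prompted the choice, so the sum is not independent of it. The 19 reads of C18:0 CoA replicate 2 lay in CRA1 (7), CRU3 (6) and OLEO4 (6). The sums were 11.6, 7.42 and 3.07 CPM with C18:1 CoA and 13.1, 12.1 and 6.17 CPM with C16:0 CoA. The reads per gene were few outside C18:0 CoA replicate 3, and whether seeds or embryos in a pool contributed was not tested.

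Some cold and dehydration genes also had higher values. Of 26 such genes 16 were measured, with a median log2 fold change of 0.11. The log2 fold change was positive for 10 and negative for 6. There were 4 at an unadjusted p below 0.05 on the higher side (25%, background 1.23%) and 0 on the lower side. ERD10, a dehydrin (chromosome 1, 7088003 to 7089606), was at 839.0, 897.0 and 937.0 CPM in the controls and at 1057.0, 1284.0 and 1444.0 CPM with C18:0 CoA, with every treated library higher. Its log2 fold change was 0.50 ± 0.17 (unadjusted edgeR p 0.00938). LTI30, a cold-induced dehydrin, was at 151.0, 117.0 and 154.0 CPM against 182.0, 329.7 and 192.0 CPM. KIN2, a small cold-responsive protein, was at 96.3, 101.0 and 153.0 CPM against 154.0, 303.0 and 283.0 CPM (log2 fold change 1.08 ± 0.42). Its groups did not overlap, but only just, since control replicate 3 and C18:0 CoA replicate 1 were nearly equal. With the length trend removed KIN2 was at 0.78 and its groups overlapped, while ERD10 and LTI30, both at 0.50, did not overlap. COR47, the dehydrin gene next to ERD10, had the most reads of the 4, at 1812.0 ± 254.0 and 2528.0 ± 528.0 CPM, and overlapped. Without C18:0 CoA replicate 2 the median of the list was 0.01.

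The promoters of LTI30 and KIN2, 2 genes of this set with different letters upstream, are at chr3:18940393-18940642 and chr5:5211469-5211718 (both plus strand, 250 bases before the RefSeq gene start, TAIR10.1). Capitals mark CCGAC, the core of the dehydration-responsive element, and ACGTG, the core of the abscisic acid-responsive element, each searched on both strands.
LTI30: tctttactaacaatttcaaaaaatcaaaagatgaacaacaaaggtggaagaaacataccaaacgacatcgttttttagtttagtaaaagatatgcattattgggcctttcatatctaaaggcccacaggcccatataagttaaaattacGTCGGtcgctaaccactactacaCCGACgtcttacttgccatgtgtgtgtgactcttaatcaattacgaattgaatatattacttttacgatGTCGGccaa
KIN2: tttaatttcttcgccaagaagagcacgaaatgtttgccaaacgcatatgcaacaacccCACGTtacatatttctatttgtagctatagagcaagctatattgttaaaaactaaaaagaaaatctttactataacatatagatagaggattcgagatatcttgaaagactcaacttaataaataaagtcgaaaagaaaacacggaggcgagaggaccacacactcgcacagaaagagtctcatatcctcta
LTI30 held 3 matches to CCGAC and 0 to ACGTG, and KIN2 held 0 and 1. The same window of ERD10, not printed, held 0 of each. CCGAC occurred in 4 of the 16 measured list members (25.0%) and 13.1% of all tested promoters, and ACGTG in 8 of 16 (50%) and in 4013 of those 17020 promoters.

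The genes with the smallest p in each direction, among those without overlap and with a mean of at least 5 CPM in the higher group, were of several kinds. The 10 higher genes were CRA1, LBD41, PAR2, AT4G30650, AT2G14900, HB1, AT5G05960, PLMT, COR413-PM1 and HVA22D. AT4G30650, annotated as a low temperature and salt responsive protein, was the most even, at 45.4, 48.1 and 44.0 CPM in the controls and 82.0, 85.9 and 86.8 CPM with C18:0 CoA (log2 fold change 0.88 ± 0.25, unadjusted edgeR p 0.00209). COR413-PM1, a cold-regulated plasma membrane protein, was at 248.0 ± 16.5 and 381.0 ± 68.7 CPM. HVA22D, a homologue of a stress-induced barley protein, was at 77.4 ± 0.165 and 122.0 ± 17.7 CPM. AT2G14900, a gibberellin-regulated family gene, was at 32.0, 30.8 and 33.2 CPM against 46.6, 126.0 and 65.8 CPM. PLMT, the phospholipid N-methyltransferase of phosphatidylcholine synthesis, was at 17.1, 21.3 and 22.4 CPM against 31.2, 49.1 and 40.4 CPM. PAR2, a negative regulator of shade avoidance, was at 14.3 ± 4.20 and 28.3 ± 4.12 CPM.

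The 10 lower genes were AGL17, MSL2, SS4, PPD1, DABB1, ARF9, FRO4, AT2G22660, AT1G23230 and AT3G13760. MSL2, a mechanosensitive channel of the plastid envelope (chromosome 5, 3300225 to 3304761), was at 53.6, 55.2 and 42.5 CPM in the controls and at 36.1, 29.8 and 29.9 CPM with C18:0 CoA (log2 fold change -0.65 ± 0.22, unadjusted edgeR p 0.00725). SS4, the starch synthase that starts starch granules, was at 69.1, 69.8 and 58.7 CPM against 44.1, 40.3 and 41.2 CPM. ARF9, an auxin response factor, was at 36.8, 29.2 and 41.7 CPM in the controls and no more than 25.5 CPM with C18:0 CoA, and FRO4, a ferric reduction oxidase, at 38.0 ± 3.87 and 19.2 ± 4.85 CPM. AGL17, a MADS-box factor, was at 7.77, 11.8 and 11.6 CPM against 3.91, 0.0 and 4.04 CPM, where the 0.0 is in the shallowest library. AT1G23230, annotated as a Mediator subunit, had lower values too, with a log2 fold change of -1.02 ± 0.39.

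**Figure D4:**
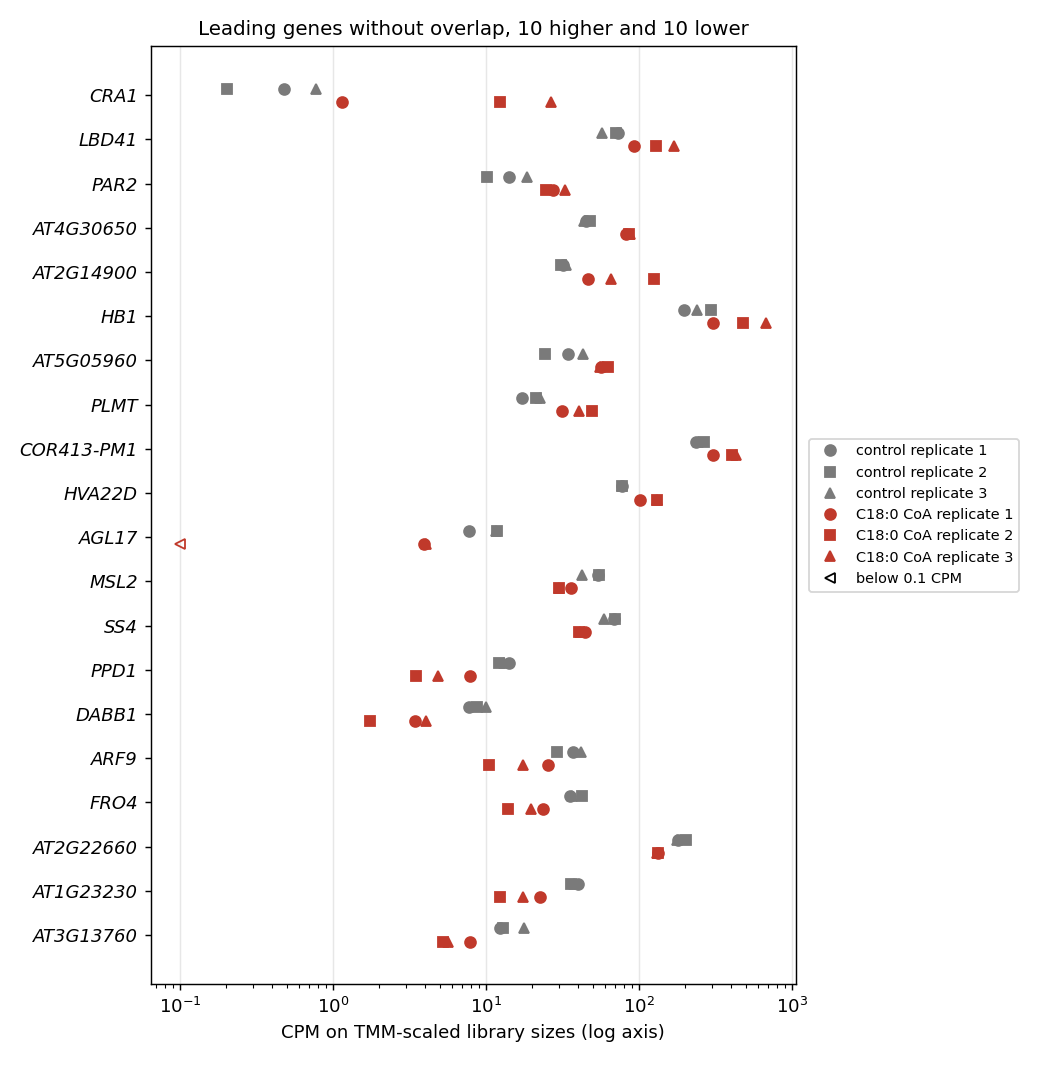
CPM (log axis) in each control (grey) and C18:0 CoA (red) library of the 10 higher and 10 lower genes with the smallest p among those without overlap; an open triangle marks a value below 0.1 CPM. AT4G30650 and AT2G22660 have the tightest treated groups, and CRA1 spreads from 1.15 to 26.7 CPM within the treated group.

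Gene length moved with these directions. Genes in which all treated libraries lay above the controls had a median exon length of 1128 bases, genes in which all lay below had 2257, and all genes tested had 1591. Of the 10 higher genes named, 9 were shorter than that median, and of the 10 lower genes 2 were. With the genes in 10 bins of length, 13.5% lay above and 1.06% below in the shortest bin, and in the longest 0.822% lay above and 18.7% below. After the length trend of each library was removed, the median lengths were 1591 and 1592, 864 genes lay above and 861 below, and 9 of the 10 higher genes (all but HB1) and 10 of the 10 lower genes had no overlap.

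**Figure D5:**
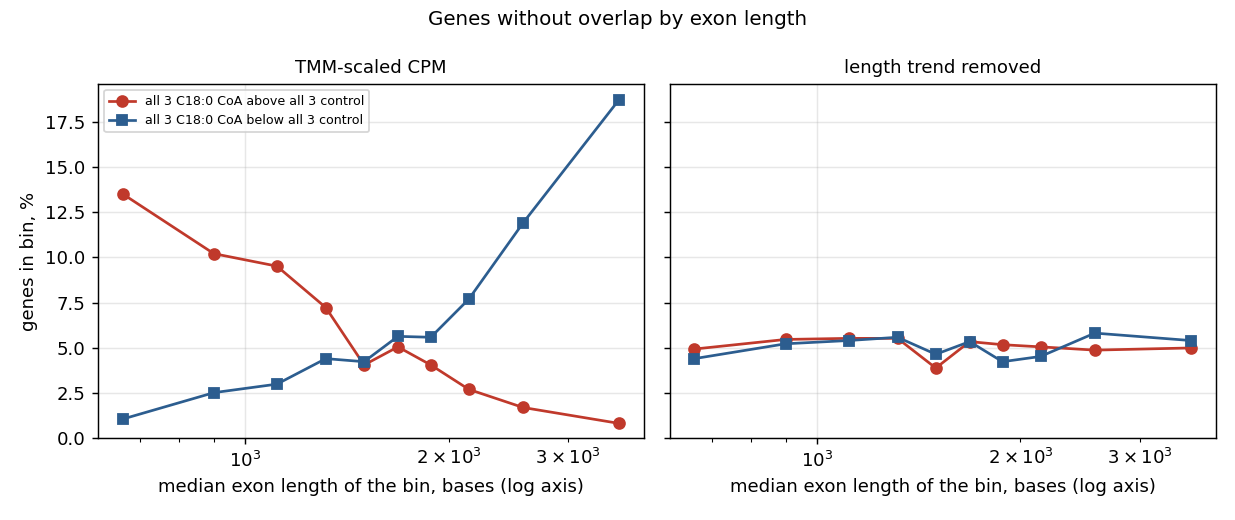
Share of genes (%) whose 3 C18:0 CoA libraries all lay above (red) or all below (blue) the controls, in 10 bins of exon length (log axis, median of each bin), before (left) and after (right) removal of each library's length trend. Before removal the share above goes from 13.5% in the shortest bin to 0.822% in the longest, and after removal both shares lie between 3.88% and 5.81%.

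Stress and hormone groups held a few separate genes around medians close to 0. VSP1, a vegetative storage protein induced by jasmonate, was at 0.159, 0.406 and 0.772 CPM in the controls and at 1.84, 5.26 and 5.25 CPM with C18:0 CoA, higher in every treated library but on few reads. MYC2, the central jasmonate transcription factor, was lower in each treated library, at 49.8 ± 7.83 and 34.2 ± 5.38 CPM (log2 fold change -0.48 ± 0.22), and the median of the 21 jasmonate genes was 0.01. CYP81D8, a cytochrome P450 of the oxidative stress list, was at 36.8, 37.5 and 49.4 CPM against 33.8, 26.3 and 14.9 CPM. UGT74E2, an auxin glucosyltransferase induced by peroxide, was at 6.82, 7.3 and 8.5 CPM against 4.82, 19.3 and 52.5 CPM, and the immune receptor kinase gene FRK1 at 2.38, 14.0 and 2.32 CPM against 1.61, 1.75 and 54.9 CPM. In UGT74E2, FRK1, ICL and CRA1 alike, C18:0 CoA replicate 3 held the highest value. BIP3, an inducible chaperone of the endoplasmic reticulum, was at 3.25 ± 1.62 and 0.863 ± 0.752 CPM, under the 3-read floor in the shallowest library. The median of the 15 measured heat shock genes was -0.05, that of 30 early immune genes -0.06 and that of 9 salicylic acid genes 0.09.

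Photosynthesis genes had a median log2 fold change of -0.06 over 26 genes, and 4 of them lay below all controls, against a background of 6.47%. GAPA1, a plastid glyceraldehyde-3-phosphate dehydrogenase, was at 478.0, 375.0 and 439.0 CPM in the controls and at 270.2, 372.0 and 296.0 CPM with C18:0 CoA (log2 fold change -0.47 ± 0.21). RCA, rubisco activase, was at 1328.0 ± 238.0 and 1059.0 ± 59.2 CPM. The clock gene CCA1 was at 46.5, 44.6 and 46.3 CPM against 30.6, 45.6 and 34.7 CPM, with overlap.

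The authors' deposited table gives a different count, from Baggerley's test on proportions of reads. There, 1045 genes of the authors' deposited table had a corrected p below 0.05 for C18:0 CoA against control, 757 with a positive and 260 with a negative fold, and the rest with no numeric fold. Of these, 970 were tested here, and 959 had the same direction in edgeR, 349 had no overlap between groups and 144 had an unadjusted edgeR p below 0.05. In the authors' deposited table, 22 of the 52 low-oxygen genes (42.3%) were among the 757 with a positive fold and 0 among those with a negative one, while those 757 were 2.64%, and the 1045 called in either direction 3.65%, of its 28642 genes. The genes it called higher had a median exon length of 879 bases and those it called lower 1726. Of the 732 called higher that were tested here, 575 (78.6%) had their highest treated CPM in replicate 2 and 0 in replicate 1, whereas over all genes tested replicate 2 was highest in 39.0%.

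Some of the smallest corrected p-values in the authors' deposited table were those of HB1, KIN2, AT2G23120, AT3G44590, AT1G19530 and AT5G45350, with deposited folds of 1.83, 1.98, 1.76, 1.62, 1.61 and 1.53. AT2G23120, a late embryogenesis abundant protein gene, shows the pattern within the replicates: it was at 474.0, 646.0 and 704.0 CPM in the controls and at 776.0, 1694.0 and 1263.0 CPM with C18:0 CoA, highest in replicate 2. AT3G44590, a 60S acidic ribosomal protein gene, was at 76.9, 84.6 and 97.3 CPM against 112.0, 247.0 and 147.0 CPM.

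C18:0 CoA was set against the other acyl-CoAs at the same dose and time in 2 comparisons. Both comparison groups held a shallow library. C18:1 CoA replicate 1 had 348140 exon reads, the fewest of the series, and C16:0 CoA replicate 2 had 640605. Their shortest genes were higher against their longest genes by 0.45 and 1.1 (log2), against 0.39 in C18:0 CoA replicate 2. Against C18:1 CoA, which has 1 double bond in a chain of the same length, edgeR gave 0 genes past the adjusted test and 450 at an unadjusted p below 0.05. Against C16:0 CoA, whose saturated chain has 16 instead of 18 carbons, it gave 0 and 360. DESeq2 and limma voom also gave 0 in both. The low-oxygen list had a median of -0.02 against C18:1 CoA and -0.16 against C16:0 CoA. For LBD41 the difference from C18:1 CoA was -0.09 (95% interval -0.64 to 0.46) and from C16:0 CoA -0.31 (-0.86 to 0.24). For PDC1 they were -0.04 (-0.93 to 0.86) and -0.13 (-1.02 to 0.76), intervals that leave room for a near doubling either way. HRA1 averaged 47.7 ± 12.6 CPM with C18:0 CoA, 71.1 ± 28.1 CPM with C18:1 CoA and 81.6 ± 35.0 CPM with C16:0 CoA, with log2 differences of -0.64 (-1.29 to 0.01) and -0.80 (-1.45 to -0.16).

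XTH18, a xyloglucan endotransglucosylase of the cell wall (chromosome 4, 14825808 to 14827047), showed the clearest separation from C18:1 CoA among the genes of the touch list. It was at 103.0, 142.0 and 173.0 CPM with C18:0 CoA, at 90.7, 95.3 and 87.3 CPM in the controls and at 62.0, 53.1 and 69.8 CPM with C18:1 CoA, so that the 3 groups did not overlap. The log2 difference of C18:0 CoA from C18:1 CoA was 1.17 (95% interval 0.65 to 1.69, unadjusted edgeR p 0.000155, adjusted p above the threshold). With C16:0 CoA it was at 79.7, 126.0 and 74.5 CPM. The dehydrin LTI30 was at 174.0, 105.0 and 97.4 CPM with C18:1 CoA, a log2 difference of 0.95 (0.35 to 1.55).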

How the data were processed

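Stranded poly(A) libraries were sequenced as 50-cycle read pairs, per the labels' protocols. The authors deposited read counts per gene, mapped to TAIR10 per the submitters' processing notes; which aligner was used, and whether counting used strand, is not given in the sources used here. Columns of unique and of total exon reads held the same values (0 differed), so near-identical copies, overlapping and antisense genes are less certain. The authors also deposited p-values and corrected p-values of Baggerley's test and a signed fold, used here as a score.

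The table held 28642 genes and 1 line without a gene, which was left out. Columns of samples outside the series numbered 0. All 12 libraries entered 1 edgeR 4.0.16 quasi-likelihood model in R 4.3.3, with a mean per group, TMM scaling, filterByExpr (17036 genes kept) and two-sided Benjamini-Hochberg adjustment over those genes, threshold 0.05. The biological coefficient of variation was 0.229. Intervals are approximate 95% intervals. DESeq2 1.42.0, limma voom 3.58.1 and the other settings are in the closing section. The fit was tested on simulated data. The labels call the replicates biological, and replicate pairs differed by more than sampling noise.

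Named genes were the 10 with the smallest p in each direction among genes without overlap and with at least 5 CPM in the higher group, fixed low-oxygen genes, every ACBP and LACS gene with SSI2 and FAD2, up to 4 members per list by p, and 6 from the authors' comparison. Members and lists were chosen with earlier results of these data known. ETR2, CRU3 and AT4G12490 were named after their values were seen. Gene names and promoters come from RefSeq (28009 identifiers matched); promoter coordinates are TAIR10.1, gene coordinates TAIR10.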

Additional observations from a re-analysis of the deposited data

Results flagged for a closer look

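XTH18 was separate from control in opposite directions under 2 acyl-CoAs: each C18:0 CoA library lay above each control (log2 fold change 0.61) and each C18:1 CoA library lay below each control. Both comparisons use the same 3 controls. The difference between the acyl-CoAs themselves had an unadjusted edgeR p of 0.000155 and did not pass the adjusted test over all genes.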

How the results depend on the processing

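The count of genes past the adjusted test was 0 under each setting tried except a term per lane, which gave 1, AT4G12490, with 1 residual degree of freedom. That term also gave 32 genes at an unadjusted p below 0.05 and a low-oxygen median of -0.24, against 0.41 to 0.70 when each replicate was left out in turn. Against 321 genes at an unadjusted p below 0.05, there were 858 with only the 6 libraries, 858 with the 3 shallowest libraries left out, and 170 to 681 with each replicate left out in turn. Genes without overlap numbered 3348 to 5081 with a replicate left out, as fewer libraries make separation easier. Leaving out the 3 shallowest libraries gave 3607. That is the same count as without C18:0 CoA replicate 2, the only one of them that enters it. Removing the length trend and C18:0 CoA replicate 2 together, chosen after seeing the data, gave 206 genes at that p and 3437 without overlap. Causes were otherwise not tested. The labels do not say that replicate numbers pair the samples. Deviations of same-numbered C18:0 CoA and control libraries from their group means had correlations of 0.18, -0.0567 and -0.0743. With 3 libraries a group, these values cannot settle whether samples were paired. With a replicate block 0 genes passed and 306 had an unadjusted p below 0.05. With a term per lane, where C18:0 CoA replicate 1 alone sets the treated level, 44 of 133 named genes measured turned sign. That setting was added for them after seeing the data. Under the other settings run for them 118 kept their sign and 15 did not, among them ACBP1, ACBP3, ACBP4, LACS4, LACS6 and LACS8. Depth limits genes near 5.26 CPM in C18:0 CoA replicate 2, the shallowest of the 6 libraries compared.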
